A study of Mus musculus with 13 samples.

Results

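The chemokine system of the mouse liver was examined after bile duct ligation (BDL), an operation that blocks bile flow and causes cholestatic injury. Members were all genes whose mouse symbol is that of a CC or CXC chemokine or of its receptor (Ccl, Cxcl, Ccr or Cxcr followed by a number), together with Cx3cl1, Cx3cr1, Xcl1, Xcr1 and the atypical receptors Ackr1 to Ackr4. Of 62 such symbols in RefSeq, 58 had a row among the 23725 genes of the count tables, as 36 ligands, 18 receptors and 4 atypical receptors. The ligands include Cxcl11, which is annotated as a transcribed pseudogene and shares 41.7% of its exon bases with another gene. Ccl21a, Ccl21b, Ccl21c and Ccl27b had no row and were not analysed here.

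Whole-liver RNA was sequenced from 13 C57 mice aged 3 months, and the methods describe the injected mice as male. The no BDL group (n = 5) is labelled as not treated. The miR-Ctrl BDL group (n = 4) had the ligation and a control oligonucleotide, and the anti-miR-873-5p BDL group (n = 4) had the ligation and an antisense inhibitor of the microRNA miR-873-5p. Both BDL groups were injected with 60 µg on days 3 and 5 after the operation, and livers were taken on day 7. Because the no BDL mice are labelled as not treated, the ligation, the operation as such and the injections cannot be told apart in comparisons with them. The counts came in 3 tables, 1 for each pair of groups. The table of the BDL groups against each other holds only 3 mice per group (miR-Ctrl BDL mice 1, 2 and 4, and anti-miR-873-5p BDL mouse numbers 1, 3 and 4). It is labelled as free of outliers, so the submitters left out miR-Ctrl BDL mouse 3 and anti-miR-873-5p BDL mouse 2. Both of these mice stay in the comparisons with the no BDL mice. Total counts per mouse ran from 12185333 to 19689037 over all 3 tables. Values below are normalized counts, meaning counts per 1e6 of the TMM-scaled library of that table, so that a mouse has slightly different values in different tables.

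Chemokines are small secreted proteins that direct the movement of leukocytes through G protein-coupled receptors on those cells. They are grouped by the spacing of their first cysteines into CC, CXC, CX3C and C chemokines, and CXC chemokines with a glutamate-leucine-arginine (ELR) motif attract mainly neutrophils, whereas CC chemokines such as Ccl2 attract mainly monocytes. Atypical receptors bind chemokines without the usual G protein signal and remove or redistribute them. In the liver, chemokines are made by Kupffer cells, endothelial cells, stellate cells, cholangiocytes and hepatocytes, and several of their genes are known targets of the transcription factors NF-kB and of the interferon pathway.

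Promoter sequences of members that rose after ligation are shown because many of these genes moved together. The capitals mark matches to GGNNNTTCC, a short form of the NF-kB site, or to GAAANNGAA, a core of interferon response elements, on either strand. Each sequence is the 250 bases before an annotated start, on the strand of the gene, from RefSeq on GRCm38.p6. For Cxcl14 that start and the whole window lie inside the annotated span of the gene (chr13:56288643-56296811). The ELR chemokines are Cxcl2 (chr5:90903649-90903898, plus strand) and Cxcl1 (chr5:90890995-90891244, plus strand), the other CXC chemokines are Cxcl14 (chr13:56296552-56296801, minus strand) and Cxcl10 (chr5:92348890-92349139, minus strand), the CC chemokines are Ccl6 (chr11:83593088-83593337, minus strand) and Ccl9 (chr11:83578637-83578886, minus strand), and the CX3C chemokine is Cx3cl1 (chr8:94771930-94772179, plus strand).
Cxcl2: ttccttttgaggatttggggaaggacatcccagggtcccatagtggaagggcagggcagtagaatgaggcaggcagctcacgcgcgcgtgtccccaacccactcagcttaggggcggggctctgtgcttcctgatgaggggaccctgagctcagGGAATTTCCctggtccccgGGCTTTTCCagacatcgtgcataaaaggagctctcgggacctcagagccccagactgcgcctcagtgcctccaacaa
Cxcl1: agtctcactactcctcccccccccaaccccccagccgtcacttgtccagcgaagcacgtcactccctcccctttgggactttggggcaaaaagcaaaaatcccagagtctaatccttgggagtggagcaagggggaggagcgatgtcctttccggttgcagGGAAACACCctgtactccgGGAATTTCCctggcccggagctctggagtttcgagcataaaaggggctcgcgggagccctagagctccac
Cxcl14: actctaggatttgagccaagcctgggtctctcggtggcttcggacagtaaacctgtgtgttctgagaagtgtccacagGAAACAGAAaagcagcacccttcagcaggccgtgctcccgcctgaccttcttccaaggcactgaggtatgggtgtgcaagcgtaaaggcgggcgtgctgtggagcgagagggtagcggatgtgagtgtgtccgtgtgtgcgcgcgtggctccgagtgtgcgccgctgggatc
Cxcl10: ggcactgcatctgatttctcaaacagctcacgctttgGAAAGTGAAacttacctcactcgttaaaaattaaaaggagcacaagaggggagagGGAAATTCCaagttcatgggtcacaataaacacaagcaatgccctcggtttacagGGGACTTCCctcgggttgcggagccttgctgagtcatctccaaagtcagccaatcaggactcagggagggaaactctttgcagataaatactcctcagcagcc
Ccl6: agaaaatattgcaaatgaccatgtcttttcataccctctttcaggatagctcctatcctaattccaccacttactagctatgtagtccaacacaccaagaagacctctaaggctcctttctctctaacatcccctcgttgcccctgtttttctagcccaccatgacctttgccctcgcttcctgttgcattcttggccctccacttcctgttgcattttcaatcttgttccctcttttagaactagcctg
Ccl9: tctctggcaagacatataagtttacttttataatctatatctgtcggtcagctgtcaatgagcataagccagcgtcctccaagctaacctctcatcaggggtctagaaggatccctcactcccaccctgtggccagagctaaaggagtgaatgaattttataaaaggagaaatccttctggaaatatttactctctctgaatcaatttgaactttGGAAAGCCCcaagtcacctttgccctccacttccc
Cx3cl1: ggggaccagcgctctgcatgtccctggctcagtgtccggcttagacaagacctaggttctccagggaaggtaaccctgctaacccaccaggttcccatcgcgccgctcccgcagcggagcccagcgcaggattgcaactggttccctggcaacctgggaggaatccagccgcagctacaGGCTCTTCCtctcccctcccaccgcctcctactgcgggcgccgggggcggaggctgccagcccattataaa
Cxcl2 and Cxcl1 each held a pair of GGNNNTTCC matches within the last 100 bases before the start, at -96 and -77 in Cxcl2 and at -89 and -70 in Cxcl1 (first base of each match, counted back from the start). Cxcl10 held that motif at -158 and -103 and GAAANNGAA at -213, Cxcl14 held GAAANNGAA at -172, Ccl9 and Cx3cl1 held GGNNNTTCC at -35 and -71, and the Ccl6 window held neither. A window was available for 43 of the 58 members and for 32817 promoters in all. The 43 members had 47 windows, since a gene can have several starts. GGNNNTTCC stood in 16 of the 47 (34.0%), against 15.7% of all windows, and GAAANNGAA in 8 of the 47 (17.0%), against 7.12%. Of the 12 members that were higher in either BDL group and had a window, 5 held GGNNNTTCC and 3 held GAAANNGAA. Those 3 were Cxcl10, Cxcl14 and Ccr2, and the windows of Cxcl14 and Ccr2 lie inside the gene span. Over all 43 members with a window the counts were 16 and 8. Whether matches go with the rise was not tested. No match of one motif overlapped a match of the other. A match describes letters in the window and does not show that a factor binds there. The members without a window included Ccl11, Ccl2, Ccl24, Ccl26, Ccl4, Ccl5, Ccl7, Ccr10, Ccr7, Cxcl11, Cxcl16, Cxcl17, Cxcl5 and Cxcr5.

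Which chemokines and receptors changed after ligation was first asked in the miR-Ctrl BDL mice. Of the 58 members, 33 passed the filter on low counts (edgeR's filterByExpr) and 25 did not. By the quasi-likelihood test of edgeR, with p adjusted over all genes tested (Benjamini-Hochberg), 18 of the 33 were higher and 4 were lower at an adjusted p of 0.05, against 19.1% of all tested genes higher and 16.6% lower. The median log2 fold change was 1.88 over the 33 members and -0.01 over all genes. Members such as Ccl7 and Cxcl5 had few counts in the controls and passed the filter through the BDL mice, which raises this median. It was 1.45 over the 58 members with at least 1 count, and 0.03 over all genes with at least 1 count. With scaling by library size alone, 24 members were higher and 0 lower, but this scaling also raised the median over all genes, to 0.79. The 18 comprised 13 of 22 tested ligands, 4 of 7 receptors and 1 of 4 atypical receptors. They included the neutrophil attractants Cxcl1, Cxcl2 and Cxcl5, the monocyte attractants Ccl2 and Ccl7, and the receptors Ccr1, Ccr2 and Cx3cr1. By position, 6 of 7 tested ligands on chromosome 11 and 5 of 8 on chromosome 5 were higher, and so were 3 of 5 tested receptors on chromosome 9.

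**Figure D1:**
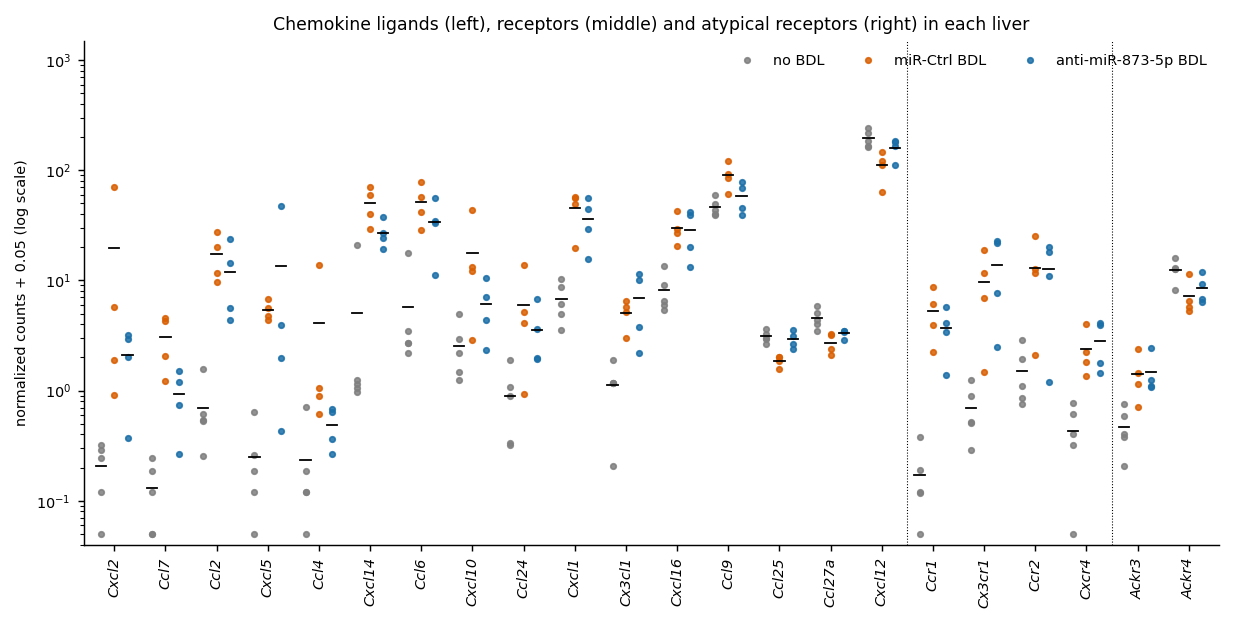
Normalized counts plus 0.05 (log axis) of the members past the threshold in a comparison with the no BDL mice, as 1 point per mouse, with a short bar at the group mean. Dotted lines part ligands, receptors and atypical receptors, and the no BDL points are those of the table with the miR-Ctrl BDL mice. For Ccl2 the miR-Ctrl BDL mice sit between 9.71 and 27.6 and the no BDL mice between 0.203 and 1.51, without overlap.

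Among the ELR chemokines, which signal through Cxcr2, Cxcl1 was at 8.65, 6.09, 4.92, 3.52 and 10.3 normalized counts in the no BDL mice and at 19.7, 56.0, 57.5 and 49.9 in the miR-Ctrl BDL mice. Every BDL mouse was above every control, and the log2 fold change was 2.77 (SE 0.37, adjusted p = 0.000617). Cxcl5 was at 0.0703, 0, 0.211, 0.135 and 0.590 without BDL and at 4.32, 5.54, 6.77 and 4.70 with it, again without overlap and with little spread among the BDL mice (log2 fold change 4.62, SE 0.52, adjusted p = 0.000284). Cxcl2 was at 0.0703, 0.237, 0, 0.271 and 0.197 without BDL and at 0.865, 5.69, 69.9 and 1.85 with it. The groups did not overlap, yet mouse 3 alone stood far above the others. Its log2 fold change of 6.90 (SE 1.52, adjusted p = 0.00663) was 4.10 without that mouse, with an adjusted p of 0.00235. Cxcl2 shares 5.8% of its 50-base stretches with Cxcl3, so reads of the 2 genes could be partly exchanged.

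Of the CC chemokines that act on Ccr2, Ccl2 and Ccl7 were tested and rose. Ccl2, the main monocyte attractant of the liver, was at 0.492, 0.474, 0.562, 0.203 and 1.51 without BDL and at 11.5, 27.6, 9.71 and 20.2 in the miR-Ctrl BDL mice, which is 26.1-fold (log2 fold change 4.71, SE 0.49, adjusted p = 0.000211). Ccl7 was at 0, 0, 0.0702, 0.135 and 0.197 without BDL and at 1.17, 2.02, 4.24 and 4.55 with it (log2 fold change 5.03, SE 0.67, adjusted p = 0.000601). Neither gene's groups overlapped.

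Of the chemokines that bind Ccr1, Ccl6 was at 2.67, 2.13, 3.44, 2.64 and 17.8 normalized counts without BDL and at 28.4, 56.8, 78.6 and 41.5 with it. The groups did not overlap, although no BDL mouse 5 was well above the other controls. The log2 fold change of Ccl6 was 3.15 (SE 0.64, adjusted p = 0.00446), and 4.23 without that control. Ccl9, present in every control at 39.0 to 59.8 (median 43.3), was at 121, 85.5, 61.2 and 92.8 in the BDL mice (log2 fold change 0.96, SE 0.20, adjusted p = 0.00479). Every BDL value lay above every control, but the change was the smallest among the 18 members. Ccl4, an attractant of monocytes and T cells, was at 0.559, 1.01, 13.7 and 0.849 in the BDL mice and at 0 to 0.655 (median 0.0703) in the controls, so that the groups overlapped. Its log2 fold change of 4.30 (SE 1.22, adjusted p = 0.0206) was 2.00 without BDL mouse 3, with an adjusted p of 0.0449. Ccl24, an eosinophil attractant that binds Ccr3, was at 5.08, 4.03, 0.889 and 13.8 in the BDL mice and at 0.271 to 1.83 (median 0.843) in the controls, with mouse 3 inside the control range (log2 fold change 2.80, SE 0.74, adjusted p = 0.0151). Without BDL mouse 4 the adjusted p of Ccl24 was 0.0519.

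The other CXC and CX3C ligands that rose differed in how evenly they did so. Cxcl16, a transmembrane chemokine for Cxcr6, was at 5.30 to 13.6 (median 6.40) without BDL and at 27.1, 42.6, 20.3 and 29.1 with it (log2 fold change 1.88, SE 0.30, adjusted p = 0.00136). Cx3cl1 (fractalkine), the membrane-bound ligand of Cx3cr1, was at 0.158 to 1.83 (median 1.12) without BDL and at 5.14, 6.40, 2.94 and 5.65 with it (log2 fold change 2.22, SE 0.44, adjusted p = 0.00389). Both were separated from the controls in every mouse. Another gene overlaps 18.3% of the exon bases of Cxcl16, so its counts are less certain. Cxcl10, an interferon-induced attractant of T cells through Cxcr3, was at 1.20 to 4.91 (median 2.13) without BDL and at 13.3, 12.0, 2.80 and 43.2 with it, with mouse 3 inside the control range (log2 fold change 2.82, SE 0.69, adjusted p = 0.0104). Cxcl14, a chemokine made by epithelia and stroma, was at 1.20, 1.11, 0.913, 1.02 and 20.8 in the controls and at 39.8, 60.2, 71.1 and 29.3 in the BDL mice. Here no BDL mouse 5 was near the BDL mice, and the log2 fold change of 3.30 (SE 0.92, adjusted p = 0.0189) was 5.56 without it. Cxcl9, which shares its receptor with Cxcl10, had 5.06, 6.48, 9.20, 6.03 and 40.1 in the controls and 20.5, 13.9, 5.67 and 42.0 in the BDL mice and did not pass the test (log2 fold change 0.62, SE 0.71, adjusted p = 0.533).

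The members that passed the test in the other direction were 3 ligands and 1 atypical receptor, and scaling by library size alone moved their log2 fold changes to 0.03 for Ccl25, 0.08 for Ccl27a, -0.02 for Ackr4 and -0.01 for Cxcl12. Their direction is therefore relative to the bulk of genes. Cxcl12, the ligand of Cxcr4 and Ackr3 and a homeostatic chemokine of liver stroma and endothelium, was at 164, 242, 220.0, 167 and 186 without BDL and at 111, 122, 64.0 and 146 with it (log2 fold change -0.82, SE 0.23, adjusted p = 0.019 with TMM scaling). Ccl25, a ligand of Ccr9, was at 2.61 to 3.58 (median 2.95) without BDL and at 1.53, 1.81, 1.98 and 1.95 with it (log2 fold change -0.75, SE 0.17, adjusted p = 0.00814). Ccl27a, a ligand of Ccr10, was at 3.45 to 5.76 (median 4.32) without BDL and at 3.15, 2.32, 2.05 and 3.20 with it (log2 fold change -0.75, SE 0.21, adjusted p = 0.0205). The call of Ccl27a was lost without miR-Ctrl BDL mouse 2 (adjusted p = 0.0575). For these 3 ligands the groups did not overlap. Ccl27a shares 45.0% of its 50-base stretches with other loci, so its counts are uncertain.

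Among the receptors, Ccr1 had the largest log2 fold change, 5.28 (SE 0.60, adjusted p = 0.000309). It was at 0.0703, 0, 0.141, 0.0677 and 0.328 normalized counts without BDL and at 2.19, 6.10, 8.62 and 3.90 in the miR-Ctrl BDL mice, and all of the latter were higher. Ccr2, the receptor of inflammatory monocytes, was at 1.90, 0.712, 1.05, 0.812 and 2.82 without BDL and at 12.6, 25.5, 2.05 and 11.6 with it (log2 fold change 3.14, SE 0.64, adjusted p = 0.0045). Cx3cr1, found on monocytes and tissue macrophages, was at 1.20, 0.237, 0.843, 0.474 and 0.459 without BDL and at 11.6, 18.9, 1.44 and 6.95 with it (log2 fold change 3.90, SE 0.67, adjusted p = 0.0021). For both of these receptors BDL mouse 3 was the lowest of its group, and for Ccr2 it lay inside the control range. Cxcr4, the receptor of Cxcl12, was at 0 to 0.721 (median 0.351) without BDL and at 2.19, 3.98, 1.78 and 1.30 with it (log2 fold change 2.55, SE 0.56, adjusted p = 0.00671).

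Cxcr2 and Xcr1 were tested and did not pass. Cxcr2, the receptor of the ELR chemokines, was at 5.76, 4.35, 7.02, 4.94 and 6.09 without BDL and at 4.12, 4.49, 8.14 and 6.05 with it, with a log2 fold change of 0.01 and a 95% interval of -0.50 to 0.52 (adjusted p = 0.978). Its ranges overlapped almost wholly while those of its ligands Cxcl1, Cxcl2 and Cxcl5 were apart. Xcr1, a receptor of cross-presenting dendritic cells, had a log2 fold change of -0.55 (adjusted p = 0.146).

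Of the 4 atypical receptors, Ackr3, which takes up Cxcl12, was at 0.703, 0.158, 0.351, 0.542 and 0.328 without BDL and at 0.661, 1.11, 2.33 and 1.40 with it (log2 fold change 1.67, SE 0.45, adjusted p = 0.0166). Only BDL mouse 1 lay inside the control range, and the adjusted p was 0.0508 without miR-Ctrl BDL mouse 3 and no BDL mouse 5. Ackr4, which takes up Ccl19, Ccl21 and Ccl25, was at 12.6, 16.0, 12.7, 12.8 and 8.12 without BDL and at 5.70, 6.50, 11.3 and 5.25 with it (log2 fold change -0.80, SE 0.26, adjusted p = 0.0358 with TMM scaling and -0.02 on the log2 scale with library size). Its call was lost in 7 of 9 fits that left out 1 mouse, those without no BDL mouse 1, 2, 3 or 4 or miR-Ctrl BDL mouse 1, 2 or 4, with an adjusted p of up to 0.0953. Ackr2 and Ackr1 had log2 fold changes of 0.17 and -0.27 and did not pass. Another gene overlaps 8.9% of the exon bases of Ackr4 and 25.7% of those of Ackr1, and without strand information their counts are less certain.

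**Figure D2:**
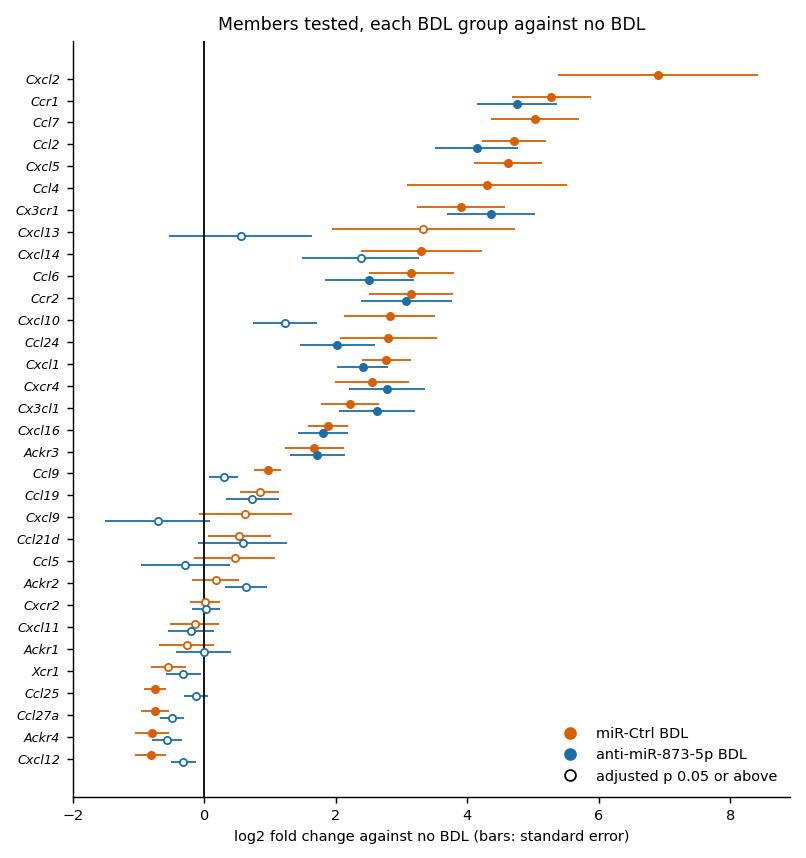
Log2 fold changes of tested members against the no BDL mice, for the miR-Ctrl BDL and the anti-miR-873-5p BDL group, with lines for the standard error and open points where the adjusted p was 0.05 or above. Ccr1 is at 5.28 and 4.75 and Ccl2 at 4.71 and 4.14, while Cxcr2 sits at 0.01 and 0.02. Members below the filter of a table have no point for it.

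The same question was asked of BDL mice given anti-miR-873-5p, against the same 5 no BDL mice. Since both comparisons share these controls, their values are only set side by side. Of 29 members that passed the filter in that table, 11 were higher and 0 were lower by edgeR's quasi-likelihood test, against 13.1% of all tested genes higher and 8.44% lower. For the 0 lower members, DESeq2's Wald test also gave 0, and 2 members (Ackr4 and Ccl27a) had a log2 fold change below 0 with an unadjusted p under 0.05. Ackr4 passed as lower without no BDL mouse 5 and without anti-miR-873-5p BDL mouse 2. The median log2 fold change of the 29 members was 0.73 and that of all genes -0.01. This median leaves out Cxcl2, Cxcl5, Ccl4 and Ccl7, which were below the filter there, and it was 1.13 over 55 members with at least 1 count, 1.23 over 31 with a mean of at least 10 counts and 1.27 over 34 in a joint fit of all groups, where the miR-Ctrl BDL mice had 2.02 over the same 34. It was 1.56 without no BDL mouse 5, 1.36 without anti-miR-873-5p BDL mouse 1 and 1.25 without mouse 2. The 11 were 6 of 18 tested ligands (Ccl2, Ccl6, Ccl24, Cx3cl1, Cxcl1 and Cxcl16), 4 of 7 receptors (Ccr1, Ccr2, Cx3cr1 and Cxcr4) and Ackr3. With scaling by library size alone 19 were higher, with a median of 0.82 over all genes.

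Ccl2 was at 4.29, 5.55, 23.5 and 14.3 normalized counts in BDL mice given anti-miR-873-5p against 0.207 to 1.54 (median 0.501) in the controls (log2 fold change 4.14, SE 0.63, adjusted p = 0.00296). Cxcl1 was at 15.7, 29.4, 55.6 and 44.2 against 3.59 to 10.5 (median 6.21), with a log2 fold change of 2.41 (SE 0.39, adjusted p = 0.00391). Both ligands were above the control range in every mouse. Cx3cl1 was at 3.75, 2.15, 11.4 and 9.97 against 0.161 to 1.86 (median 1.15), again apart (log2 fold change 2.63, SE 0.58, adjusted p = 0.0133). Cxcl16 was at 20.2, 13.2, 41.9 and 39.1 against 5.40 to 13.8 (median 6.52), and only mouse 2 lay inside the control range (log2 fold change 1.8, SE 0.38, adjusted p = 0.011).

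Ccl6 and Ccl24 also passed, but less firmly. Ccl6 was at 11.1, 34.6, 33.2 and 55.5 against 2.18 to 18.2 (median 2.72; log2 fold change 2.51, SE 0.68, adjusted p = 0.0276). Ccl24 was at 1.93, 1.89, 3.54 and 6.76 against 0.276 to 1.87 (median 0.859; log2 fold change 2.02, SE 0.57, adjusted p = 0.0334). Both lost the threshold in 6 of the 9 fits that left out 1 mouse, those without no BDL mouse 1, 2, 3 or 4 or anti-miR-873-5p BDL mouse 3 or 4, with an adjusted p of up to 0.0815 for Ccl6 and 0.113 for Ccl24.

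Of the receptors, Ccr1 was at 1.34, 3.35, 4.06 and 5.75 in BDL mice given anti-miR-873-5p against 0 to 0.334 (median 0.0716; log2 fold change 4.75, SE 0.61, adjusted p = 0.00161). Cx3cr1 was at 7.61, 2.46, 22.6 and 21.8 against 0.242 to 1.22 (median 0.483; log2 fold change 4.36, SE 0.67, adjusted p = 0.00321). Ccr2 was at 11.0, 1.14, 18.2 and 20.0 against 0.726 to 2.88 (median 1.07), so that mouse 2 alone was within the control range (log2 fold change 3.07, SE 0.69, adjusted p = 0.0142). Cxcr4 was at 1.71, 1.39, 3.85 and 4.05 against 0 to 0.736 (median 0.358; log2 fold change 2.78, SE 0.58, adjusted p = 0.0105). Ackr3 was at 1.02, 1.20, 1.04 and 2.41 against 0.161 to 0.716 (median 0.358; log2 fold change 1.72, SE 0.42, adjusted p = 0.0198). The call of Ackr3 was lost without anti-miR-873-5p BDL mouse 4 (adjusted p = 0.0646) and without no BDL mouse 3 (adjusted p = 0.0506).

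Several ligands that passed in the miR-Ctrl BDL mice did not in BDL mice given anti-miR-873-5p. Cxcl10 was at 4.29, 2.27, 10.5 and 7.10 in the latter against 1.22 to 5.02 (median 2.18) in the controls (log2 fold change 1.23, SE 0.49, adjusted p = 0.0989), and its adjusted p was 0.0304 without anti-miR-873-5p BDL mouse 2 and 0.035 without no BDL mouse 5. Cxcl14 was at 24.0, 19.4, 37.3 and 26.7 against 0.931 to 21.2 (median 1.13; log2 fold change 2.38, SE 0.89, adjusted p = 0.0827), and without no BDL mouse 5 its log2 fold change was 4.63 (adjusted p = 0.000127). Ccl9 was at 77.9, 45.7, 68.9 and 39.0 against 39.8 to 61.0 (median 44.1; log2 fold change 0.29, adjusted p = 0.371). Cxcl12 was at 166, 111, 180.0 and 184 against 167 to 246 (median 189.5), with a log2 fold change of -0.32 that became 0.52 with library-size scaling (adjusted p = 0.259 with TMM scaling). Passing in one group and not in the other is no test of a difference between them, which the direct comparison of the BDL groups gives.

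Members below the filter include genes that were nearly silent without BDL. Of the 25 below it in the miR-Ctrl BDL comparison, only Ccl11, Ccl12, Ccl20, Ccl3 and Cxcl3 passed when all genes with at least 1 count were fitted. The genes below are examples with higher counts after BDL, and most of the 25 did not pass in that fit. In the miR-Ctrl BDL mice Cxcl3, an ELR chemokine next to Cxcl1 and Cxcl2 on chromosome 5, was at 0.102, 0.706, 25.8 and 0.0999, and in the controls at 0, 0.0791, 0, 0.0677 and 0. Its ratio was 189 (counting interval 52.1 to 1570.0), and mouse 3 held 377 of its 395 counts, without which the ratio was 10.8 (2.58 to 95.6). Ccl3, a ligand of Ccr1, was likewise at 0.203, 0.655, 22.8 and 0.700 against 0 to 0.655. Ccl12, a mouse monocyte attractant that acts on Ccr2, had 45 counts in the BDL mice against 1 in the controls (ratio 43.2, counting interval 7.36 to 1740.0), and Ccl20, the ligand of Ccr6, had 32 against 1 (ratio 30.7, counting interval 5.13 to 1250.0). Mouse 4 held 29 of the 45 counts of Ccl12, and the ratio without it was 21.0 (3.27 to 882). Mouse 2 held 22 of the 32 counts of Ccl20 and mouse 3 held 0, and the ratio without mouse 2 was 13.1 (1.86 to 569). These intervals cover counting error only.

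In BDL mice given anti-miR-873-5p, the same genes gave ratios of 8.56 for Cxcl3 (counting interval 2.07 to 75.8), 20.7 for Ccl12 (3.37 to 854) and 34.3 for Ccl20 (5.79 to 1390.0). Mouse 4 held the most counts of each, and without it the ratios were 3.90 (0.697 to 39.5), 13.0 (1.85 to 564) and 16.9 (2.54 to 717). By edgeR's test on all genes with at least 1 count, Cxcl3 (adjusted p = 0.164) and Ccl12 (adjusted p = 0.0611) did not pass there. Ccl20 did (adjusted p = 0.0438). Cxcl2, Cxcl5 and Ccl7 fell below the filter of that table. Cxcl2 was at 0.321, 1.96, 3.12 and 2.87 there, above every control (0 to 0.276), and Ccl7 was at 0.214, 0.694, 1.46 and 1.14 against 0 to 0.201. Cxcl5 was at 1.93, 0.379, 3.85 and 47.5 against 0 to 0.602, with mouse 4 far above the rest. In a fit of all genes with at least 1 count, their log2 fold changes were 3.64 (adjusted p = 0.00735) for Cxcl2, 3.25 (adjusted p = 0.0154) for Ccl7 and 5.92 (adjusted p = 0.0149) for Cxcl5. Ccl4, also below that filter, had a log2 fold change of 1.13 in this edgeR fit and did not pass (adjusted p = 0.343). The eosinophil receptor Ccr3 was at 0 counts in the controls and at 6 counts over the miR-Ctrl BDL mice and 10 over BDL mice given anti-miR-873-5p, at least 1.92-fold and 3.00-fold higher against a floor of 3 counts over the control group. Without miR-Ctrl BDL mouse 4, which held 4 of the 6 counts, Ccr3 was under that floor.

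To set members beside each other, levels were divided by exon length, giving normalized counts per kb. Without BDL Cxcl12 was the highest member with a mean of 23.9 per kb (20.1 to 29.6 over mice), followed by Ccl9 at 15.2 (12.8 to 19.6), and these 2 ranges did not overlap. The next were Ccl19, Cxcl9, Ccl21d and Cxcl1 at 4.66, 4.43, 3.67 and 3.57 per kb, whose ranges overlapped. In the miR-Ctrl BDL mice Ccl9, Ccl6, Cxcl14 and Cxcl1 led at 29.6, 28.6, 27.4 and 24.4 per kb, all with overlapping ranges, and Cxcl12 had 13.5. In BDL mice given anti-miR-873-5p, Cxcl12, Cxcl1, Ccl9 and Ccl6 were at 19.6, 19.3, 19.0 and 18.7 per kb and overlapped too. Among receptors Cxcr2 was highest without BDL (1.85 per kb), and in the miR-Ctrl BDL mice Cx3cr1, Ccr2, Cxcr2 and Ccr1 lay close together at 2.16, 1.92, 1.87 and 1.84 per kb. Ccl21d shares 97.1% of its 50-base stretches with its near-identical copies and its counts differ between the tables, so its level is uncertain. Ccl19 shares 52.0% of its stretches with other loci, so its level is uncertain too.

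Summed over members, ligands stood at 249 to 387 normalized counts without BDL, at 431 to 612 in the miR-Ctrl BDL mice and at 295 to 534 in BDL mice given anti-miR-873-5p. The summed receptors were at 12.0 to 25.0, 26.9 to 81.8 and 17.9 to 82.5, and the summed atypical receptors at 10.4 to 17.8, 8.49 to 14.3 and 9.27 to 14.3. The miR-Ctrl BDL mice were thus above the controls in both ligand and receptor sums, while atypical receptors overlapped. BDL mice given anti-miR-873-5p overlapped the controls in both sums. In that comparison mouse 2 was at 295 and 17.9, and the controls reached 399 and 25.5.

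A few mice stood apart in the members. The miR-Ctrl BDL mouse 3 was the highest of its group in 12 and the lowest in 16 of the 33 tested members. It had the most Cxcl2, Cxcl3, Ccl3, Ccl4 and Cxcl13 and the least Ccr2, Cx3cr1 and Cxcl10. Cxcl13, the B cell attractant, was at 80.4 in it and at 0.458 to 4.64 in the others, and did not pass (log2 fold change 3.33, SE 1.39, adjusted p = 0.089). The no BDL mouse 5 was the highest control in 20 of the 33, and the anti-miR-873-5p BDL mouse 2 the lowest of its group in 15 of 29. Without miR-Ctrl BDL mouse 3 and no BDL mouse 5, a choice made after seeing the data, 21 members were higher and 4 lower, and without anti-miR-873-5p BDL mouse 2 and no BDL mouse 5, 16 were higher and 1 (Ackr4) was lower.

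**Figure D3:**
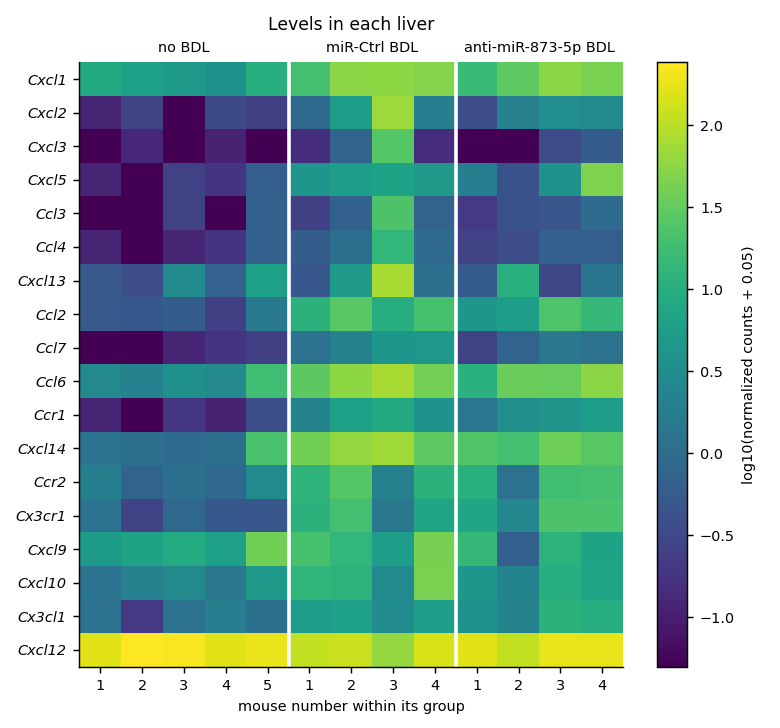
Levels of 18 members in each mouse as log10 of normalized counts plus 0.05 (colour), with white lines between the groups. In the miR-Ctrl BDL column of mouse 3, Cxcl2 (69.9 normalized counts), Cxcl3 (25.8), Ccl3 (22.8) and Cxcl13 (80.4) are bright and Ccr2 (2.05) and Cx3cr1 (1.44) are dark against the other mice of the group.

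Genes outside the symbol rule that act with chemokines were followed in a list of 73. In the miR-Ctrl BDL mice 51 of 68 tested were higher and 2 lower (median log2 fold change 1.36), against 19.1% and 16.6% of all genes tested. In BDL mice given anti-miR-873-5p, 34 of 68 were higher and 2 lower (median 0.99), against 13.1% and 8.44% of all genes tested. All 5 other chemoattractant receptors were higher in the miR-Ctrl BDL mice, among them C5ar1, the receptor of complement C5a (log2 fold change 3.29, adjusted p = 0.00295), and the formyl peptide receptor Fpr2 (2.72, adjusted p = 0.00897). In BDL mice given anti-miR-873-5p, 3 of the 5 were, with C5ar1 at 2.48 (adjusted p = 0.0202) and Fpr2 at 1.01 (adjusted p = 0.241). Adhesion molecules of leukocyte entry were higher for 8 of 9 and 7 of 9, with the integrin Itgam at 3.67 and 2.92, and the endothelial ligands Icam1 at 2.62 and 1.76 and Vcam1 at 2.23 and 2.05. Selp (P-selectin) was lower in both, at -0.97 and -1.10.

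Further inside the cell, 9 of 11 G protein subunits and effectors were higher in the miR-Ctrl BDL mice and 7 of 11 in BDL mice given anti-miR-873-5p. Src family kinases were higher for 4 of 4 and 2 of 4, and Rac pathway and cytoskeleton genes for 12 of 16 and 5 of 16, with the exchange factor Vav1 at a log2 fold change of 2.14 and 1.75. Of the kinases, arrestins and RGS proteins 6 of 10 and 5 of 10 were higher, and Rgs16, which ends G protein signals, was lower at -5.69 (adjusted p = 0.0106) and -4.50 (adjusted p = 0.0332). Of the 6 genes listed under transcription factors, 3 were higher in the miR-Ctrl BDL mice and 1 in BDL mice given anti-miR-873-5p. Nfkb1, Rela and Nfkbia, which encodes an inhibitor of NF-kB, were higher in the miR-Ctrl BDL mice at 0.91, 0.54 and 1.13. Of these only Nfkbia passed in BDL mice given anti-miR-873-5p, at 0.76 (adjusted p = 0.0251). Proteases that cut chemokines were higher for 3 of 4 in both, with Mmp12 at 4.36 and 4.10, whereas Dpp4, which trims Cxcl10 and Cxcl12, had -0.13 and -0.32 and did not pass.

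Markers of several liver cell types moved along with these members, and their part in the results was not tested. Of all genes tested, 19.1% were higher and 16.6% lower in the miR-Ctrl BDL mice. In BDL mice given anti-miR-873-5p these shares were 13.1% and 8.44%. A count of 1 in lists this short is not read as a change of a cell type. In whole-liver RNA fewer cells of a type and less RNA per cell cannot be told apart. All 9 monocyte or macrophage markers were higher in the miR-Ctrl BDL mice and 5 of 9 in BDL mice given anti-miR-873-5p, with a summed level of 47.2 to 247 without BDL, 351 to 1152 and 244 to 650.4 with it. The 4 and 3 tested neutrophil markers of 8 were all higher (2.77 to 12.6, 17.2 to 207 and 13.8 to 63.8), and miR-Ctrl BDL mouse 3, with the most Cxcl2 and Cxcl3, had the top value of 207. Of the 8 neutrophil markers 7 had a row, and those not tested fell below the filter. With so low a sum in the controls, the tested ones may have passed through the BDL mice, so their shared direction says little. Kupffer cell markers were higher for 3 of 6 and 1 of 6 (67.1 to 425, 456 to 1054 and 241 to 848), cholangiocyte markers for 6 of 6 in both (38.0 to 111, 397 to 1460.0 and 194 to 1437), and stellate cell or fibroblast markers for 4 of 8 in both. Hepatocyte markers were lower for 4 of 7 and 3 of 7 and sinusoidal endothelial markers for 1 of 6 in both. The T or natural killer cell list had 1 lower of 2 tested and 0 of 1, the B cell list 0 of 1 and 1 lower of 2, the dendritic cell list 1 higher of 3 in both, and the megakaryocyte or platelet list 0 of 3 and 1 higher of 3. No marker with a row was at 0 in every mouse of a table. The sum of sinusoidal endothelial markers was 76.6 to 113 without BDL, 18.8 in miR-Ctrl BDL mouse 3 and 34.8 in anti-miR-873-5p BDL mouse 2.

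Whether the inhibitor of miR-873-5p changed the members after ligation was asked in the table that holds both BDL groups, with 3 mice each. Of 37 members that passed the filter, 0 were called in either direction by the quasi-likelihood test of edgeR after the Benjamini-Hochberg adjustment, against 0.0% of the 13746 genes tested. At an unadjusted p under 0.05 there were 5 members and 863 genes, and DESeq2's Wald test called 0 members and 30 genes. The median log2 fold change of the members was -0.05 (all genes 0.01). The 3 mice of each group did not overlap for 5 of the 37 members. Ccl25, Ccl27a and Cxcl12 were higher and Ccl9 and Cxcl10 lower in BDL mice given anti-miR-873-5p. Of all genes, 6.59% were apart in the higher and 4.77% in the lower direction. The members were near these shares, so being apart is not read as a result about them.

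The 5 lowest log2 fold changes were those of Cxcl10, Cxcl13, Ccl7, Cxcl9 and Ccl24, all ligands. Cxcl10 was at 19.2, 17.3 and 62.3 normalized counts in the miR-Ctrl BDL mice and at 6.07, 14.6 and 9.95 in BDL mice given anti-miR-873-5p. Its log2 fold change was -1.69 with a 95% interval of -3.01 to -0.37 (adjusted p = 0.757 by edgeR). Cxcl9 was at 29.6, 19.9 and 60.6 against 20.0, 16.9 and 9.18 (log2 fold change -1.26, interval -2.32 to -0.20, adjusted p = 0.757 by edgeR). Mouse 4 was the highest of the miR-Ctrl BDL group for both Cxcr3 ligands, and without it the log2 fold change was -0.83 for Cxcl10 and -0.69 for Cxcl9. Ccl7 was at 1.69, 2.89 and 6.56 against 0.303, 2.04 and 1.60 (log2 fold change -1.48, interval -3.09 to 0.13), and Ccl24 at 7.35, 5.78 and 20.0 against 2.73, 4.95 and 9.48 (log2 fold change -0.93, interval -2.31 to 0.45). Cxcl13 was at 0.661, 6.65 and 1.51 against 0.759, 0.364 and 1.84 (log2 fold change -1.53, interval -3.66 to 0.60). Without miR-Ctrl BDL mouse 4 the log2 fold change was -0.79 for Ccl7 and -0.19 for Ccl24, and without miR-Ctrl BDL mouse 2 it was -0.11 for Cxcl13, so that 1 mouse carried much of each value. The ranges of Cxcl9, Ccl7, Ccl24 and Cxcl13 overlapped between the groups. Ccl9 was at 175, 123 and 134 against 110.4, 96.2 and 54.7 (log2 fold change -0.72, interval -1.36 to -0.09).

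The highest log2 fold changes were those of Cxcl5, Ccl25, Cx3cl1, Ackr3 and Cxcl12. Cxcl5 was at 6.25, 7.95 and 6.78 in the miR-Ctrl BDL mice and at 2.73, 5.38 and 66.6 in BDL mice given anti-miR-873-5p. Its log2 fold change was 1.84 (interval -0.69 to 4.38), and -0.78 without anti-miR-873-5p BDL mouse 4. Cxcl12 was at 160.2, 174 and 211 against 235, 252 and 257 (log2 fold change 0.45, interval 0.12 to 0.78), and Ccl25 at 2.20, 2.60 and 2.81 against 4.33, 3.27 and 3.61 (log2 fold change 0.55, interval 0.05 to 1.06). For these 2 homeostatic ligands every anti-miR-873-5p BDL mouse was higher, a separation that 6.59% of all genes had, and neither passed the adjusted test. Cx3cl1 was at 7.42, 9.18 and 8.14 against 5.31, 16.0 and 14.0 (log2 fold change 0.52, interval -0.37 to 1.40), and its log2 fold change was 0.23 without anti-miR-873-5p BDL mouse 3 and 0.86 without mouse 1. Ackr3 was at 0.955, 1.59 and 2.02 against 1.44, 1.46 and 3.38 (log2 fold change 0.47, interval -0.58 to 1.53), and at -0.07 on the log2 scale without anti-miR-873-5p BDL mouse 4.

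**Figure D4:**
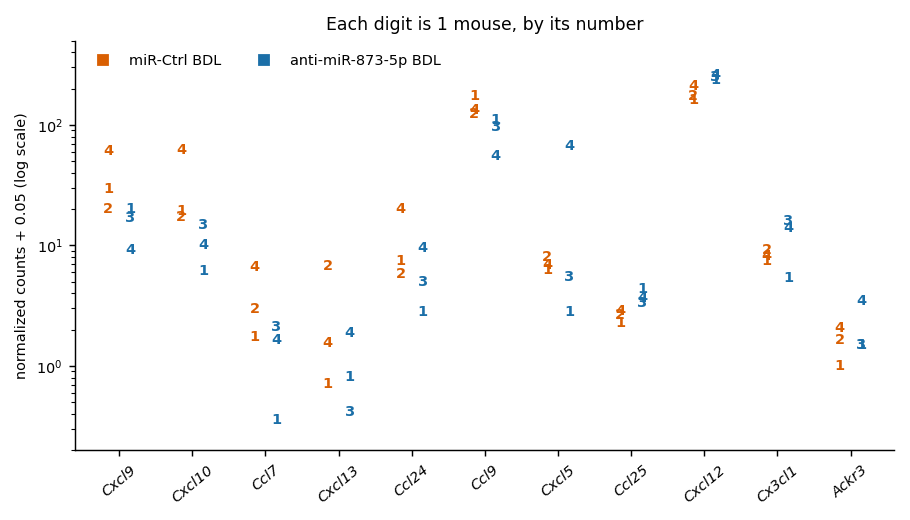
Normalized counts plus 0.05 (log axis) of members in the table of the BDL groups, each mouse drawn as its number, with miR-Ctrl BDL on the left and anti-miR-873-5p BDL on the right of each gene. The groups are apart for Cxcl10 (17.3 to 62.3 against 6.07 to 14.6) and Cxcl12 (160.2 to 211 against 235 to 257), though neither passed the adjusted test. For Cxcl5 mouse 4 of the anti-miR-873-5p BDL group stands at 66.6.

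The members that rose most against the no BDL mice had wide intervals here. Ccl2 was at 16.7, 39.6 and 29.2 in the miR-Ctrl BDL mice and at 6.07, 32.8 and 20.0 in BDL mice given anti-miR-873-5p (log2 fold change -0.54, interval -1.86 to 0.79). The intervals ran from -1.37 to 1.06 for Cxcl1, from -2.42 to 1.55 for Cxcl2, from -1.43 to 1.12 for Ccr1, from -0.86 to 0.76 for Ccr2 and from -0.68 to 1.56 for Cx3cr1. For Cxcl1, Cxcl2 and Ccr1 the interval reached beyond 1 on the log2 scale in both directions, so that changes of that size in either direction are not excluded. In this table anti-miR-873-5p BDL mouse 1 was the lowest of its group in 27 of the 37 members and miR-Ctrl BDL mouse 1 the lowest in 23. None of the 69 tested genes of the chemokine list was called (0 higher, 0 lower, median log2 fold change -0.13), nor was any cell type marker. The summed monocyte or macrophage markers were at 507 to 1163 in the miR-Ctrl BDL mice and 346 to 912 in BDL mice given anti-miR-873-5p, and the neutrophil markers at 24.9 to 84.9 and 23.9 to 89.5.

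**Figure D5:**
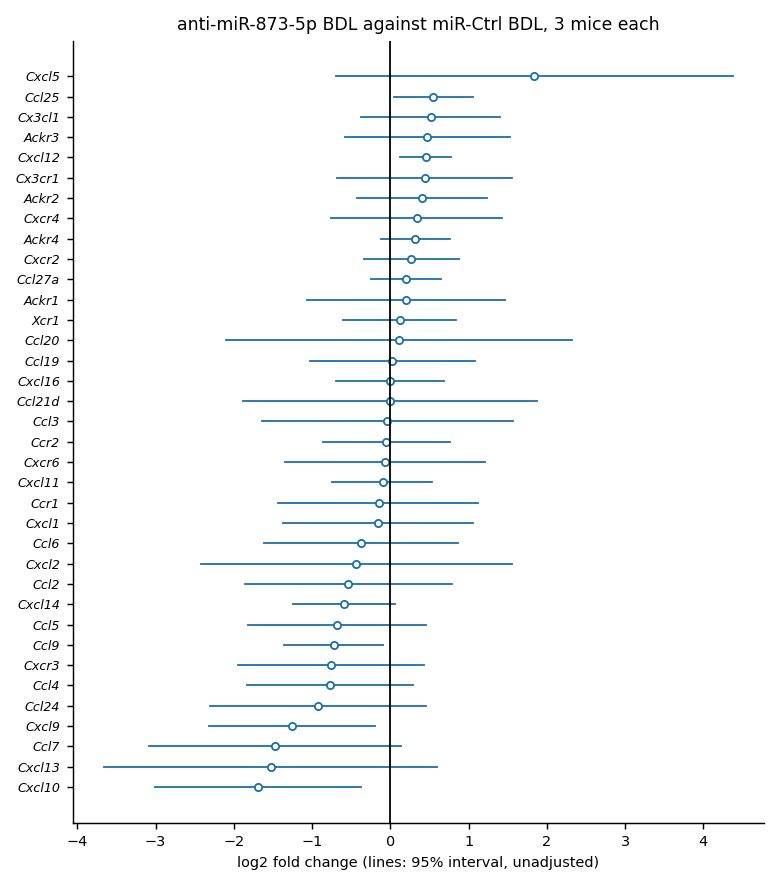
Log2 fold changes of tested members, anti-miR-873-5p BDL minus miR-Ctrl BDL on the log2 scale, with the unadjusted 95% interval as a line. Open points mark that 0 members passed the adjusted test, and Cxcl10 at -1.69 and Cxcl5 at 1.84 are the ends of the range.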

How the data were processed

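The authors deposited whole-number counts of reads per gene, in 1 table for each pair of groups. Libraries of total liver RNA (TruSeq RNA v2) were read on an Illumina instrument, and the submitters' processing notes name CASAVA 1.8.2, Trim Galore, TopHat and the build mm10, whereas the counting program and annotation are not given in the sources used here. Replicates were not pooled, and the submitters left out 1 mouse of each BDL group as an outlier in the table of those groups. The methods state that outliers were removed on the basis of clustering and principal components. Reads mapped to near-identical genes can be lost or exchanged, and the libraries carry no strand information. All columns of values were mapped to samples. Gene rows are Entrez numbers, of which 23666 of 23725 matched a symbol in RefSeq.

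Each table was fitted on its own by edgeR 4.0.16 in R 4.3.3 with filterByExpr, TMM scaling, the quasi-likelihood test and Benjamini-Hochberg adjustment over all genes, called at an adjusted p of 0.05, with only the 2 groups compared in the fit and no covariate. The standard error is the log2 fold change over the square root of F. The scripts were tested on simulated data. Values in every mouse are given for members past the threshold against the no BDL group, for the 5 highest and 5 lowest of the BDL groups against each other, and for the usual ligands of receptors described. Where that rule is exceeded (Ccl9, Cxcl3, Ccl3, Ccl20, Ccr3 and Cxcr2), the gene was picked after its values were seen. Normalized counts are counts per 1e6 of the scaled library. Shared sequence was measured as the share of 50-base stretches of a gene's transcripts found in another gene. Mice are separate animals. The 11 cell type lists, the list of 73 chemokine signalling genes and the members were chosen with earlier results of these data known. Promoter windows were searched on both strands. A few genes enter the counts and sums but are not reported by name here.

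Alternatives were library-size scaling, DESeq2 size factors, the Wald test of DESeq2 1.42.0, 2 other filters on low counts (at least 1 count, or a mean of at least 10), a joint fit of all 3 groups, a block for the mouse number, an adjusted p of 0.1, leaving out each mouse and, for the BDL groups, all 4 mice of each. Leaving out the mice that stood apart, the DESeq2 test on all 4 mice, and count ratios without the mouse that held the most counts, were chosen after seeing the data.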

Additional observations from a re-analysis of the deposited data

Results flagged for a closer look

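In 12 of 71 sets of values (a member in a group of 4 or 5 mice), 1 mouse lay far from the rest by Dixon's criterion at 95%. Chance alone gives this in about 1 in 20 independent sets. The sets cover only a part of the members and the same mice recur in them, so no excess over chance is claimed. All values are normalized counts. The no BDL mouse 5 was above the other controls for Ccl2 (1.51 against 0.203 to 0.562), Ccl4 (0.655 against 0 to 0.135), Ccl6 (17.8 against 2.13 to 3.44), Cxcl14 (20.8 against 0.913 to 1.20) and Cxcl9 (40.1 against 5.06 to 9.20). The miR-Ctrl BDL mouse 3 was above its group for Cxcl2 (69.9 against 0.865 to 5.69), Ccl4 (13.7 against 0.559 to 1.01) and Cxcl13 (80.4 against 0.458 to 4.64). The anti-miR-873-5p BDL mouse 4 was above its group for Cxcl5 (47.5 against 0.379 to 3.85) and Ackr3 (2.41 against 1.02 to 1.20). The anti-miR-873-5p BDL mouse 2 was above its group for Cxcl13 (10.7 against 0.26 to 1.31) and below it for Ccl27a (2.84 against 3.37 to 3.44).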

How the results depend on the processing

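Over all alternatives, the log2 fold changes of the named members kept their direction and side of the threshold 770 times, lost the threshold 31 times, gained it 15 times and changed sign 9 times. With library-size scaling the members lower in the miR-Ctrl BDL mice fell from 4 to 0, and the genes called rose to 9635. In BDL mice given anti-miR-873-5p, 19 members were then higher and 10194 genes called. Log2 fold changes that turned to above 0 under it were 0.0312 for Ccl25 and 0.0758 for Ccl27a in the miR-Ctrl BDL mice, and 0.231 for Ackr4, 0.67 for Ccl25, 0.352 for Ccl27a and 0.521 for Cxcl12 in BDL mice given anti-miR-873-5p. This follows from the scaling, which moved the median of all genes by about 0.8.

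Deviations of mice with the same number had correlations from -0.198 to 0.074 against no BDL. Between the BDL groups only 2 numbers are shared, with 0.349 and -0.016, which are too few to decide whether the numbers pair the samples. With the number as a replicate block in edgeR, 2 members were lower in the miR-Ctrl BDL mice and 1 in BDL mice given anti-miR-873-5p. Ackr3 then lost its call in both groups (adjusted p = 0.0736 and 0.0531), and Ccl27a and Cxcl12 lost theirs in the miR-Ctrl BDL mice. Between the BDL groups this block gave log2 fold changes of -2.19 for Cxcl10 (adjusted p = 0.143), -2.15 for Ccl7 (adjusted p = 0.286) and 0.247 for Cxcl13, and 0 genes were called there.

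Leaving out 1 mouse gave 17 to 21 higher and 2 to 4 lower members in the miR-Ctrl BDL mice, 2 without miR-Ctrl BDL mouse 2. In BDL mice given anti-miR-873-5p, it gave 8 to 16 higher, 0 to 1 lower and 1261 to 4317 genes called (2823 with all mice), the lowest without anti-miR-873-5p BDL mouse 3 and the highest without mouse 2. Between the BDL groups 0 to 1 genes were called, and Cxcl5 ranged from -0.781 to 2.37 and Ackr3 from -0.0719 to 0.728 (log2 fold changes), in each case lowest without anti-miR-873-5p BDL mouse 4. Without anti-miR-873-5p BDL mouse 2 and no BDL mouse 5, 1 member was lower and 4819 genes were called. An adjusted p of 0.1 gave 1 lower member in BDL mice given anti-miR-873-5p. DESeq2 called 30 genes between the BDL groups, and 4 with all 4 mice of each. The cause of these shifts was not tested. Depth limits the members under about 1 normalized count, which rest on few reads.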
